A study of Rattus norvegicus with 8 samples.

Results

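The transcripts described here are those of the calcium pumps of the muscle sarcoplasmic reticulum (the SERCA pumps), the peptides that regulate them, and the proteins that buffer calcium in the reticulum and the cytosol. The 9 gene symbols chosen for these roles were looked up in a table of raw read counts with 17055 rows, and 8 were found: Atp2a1, Atp2a2, Sln, Pln, Casq1, Casq2, Pvalb and Hrc. Srl, the gene of the luminal calcium-binding glycoprotein sarcalumenin, had no row and was not analysed here. The samples were diaphragms, the main muscle of inspiration, of 8 Sprague-Dawley rats collected 16 weeks after surgery. In 4 rats (MI, replicates 1 to 4) a myocardial infarction had been made by tying off the left anterior descending coronary artery through an opened chest, and in 4 rats (Sham, replicates 5 to 8) the same operation was done without the tie. Both groups thus carried the anaesthesia, ventilation and chest surgery. The labels used here state no infarct size, sex or age at surgery. Each animal gave 1 library, made from total RNA, with 7941402 to 24967251 counts. Levels are given as counts per 1000000 counts of a library (CPM) after scaling the library sizes by the trimmed mean of M values (TMM). Differences are given as log2 fold changes of MI over Sham, with an SE derived from the edgeR F test.

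A skeletal muscle fibre relaxes when SERCA pumps return calcium from the cytosol to the sarcoplasmic reticulum at the cost of ATP. SERCA1, encoded by Atp2a1, is the pump of fast fibres, and SERCA2, encoded by Atp2a2, is that of slow fibres and the heart. Sarcolipin and phospholamban are small membrane peptides that bind the pumps and restrain calcium uptake, calsequestrins store the calcium inside the reticulum, and parvalbumin takes it up in the cytosol of fast fibres. The comparison of MI with Sham asks how these transcripts stand in the breathing muscle during the remodelling that follows an infarction.

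None of the 8 transcripts separated MI from Sham diaphragms. In the edgeR quasi-likelihood test with Benjamini-Hochberg adjustment over 10522 genes, 0 of the 8 passed an adjusted p of 0.05, and the smallest adjusted p among them was 0.709, for Atp2a1. Across all genes 0% passed in either direction. At an unadjusted p under 0.05 the count was again 0 of 8, against 8.14% of all genes tested (3.67% higher and 4.47% lower in MI), while DESeq2 called 0 of the 8 (0.133% of all genes) and limma-voom 0 of the 8 (0% of all genes). In 0 of the 8 did all MI values lie on one side of all Sham values, which held for 4.55% of all genes (2.09% with MI above and 2.46% with MI below). Fitted differences were positive for 5 and negative for 3, beside 51.3% negative over all genes, with a median of 0.01 beside -0.0070 over all genes. What differed was the precision: the 95% interval of the log2 fold change was narrowest for Hrc, -0.19 to 0.22, and widest for Sln, -1.02 to 1.53, so a difference of over 2-fold in either direction was not excluded for Sln.

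**Figure D1:**
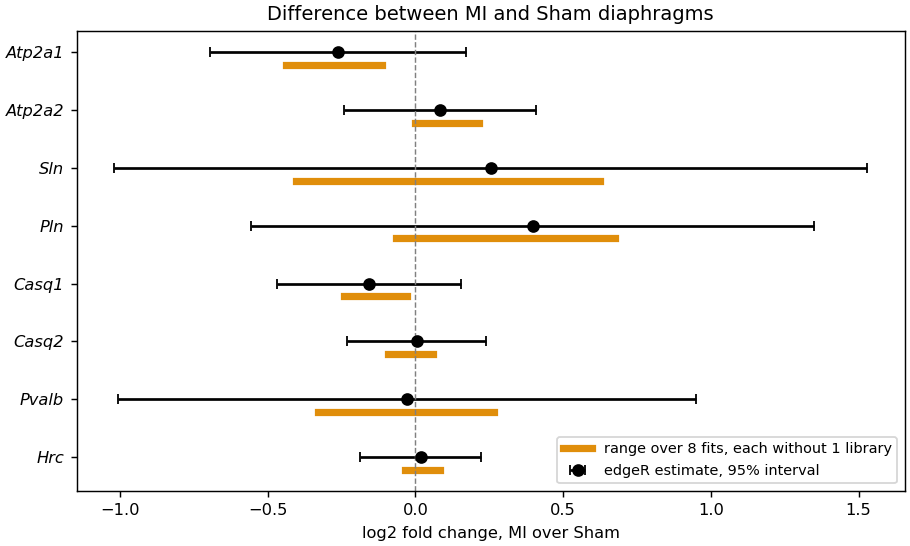
Black points are edgeR log2 fold changes of MI over Sham with their 95% intervals for the 8 transcripts, and orange bars span the values of 8 fits that each leave out 1 library. Every interval includes 0, and the intervals of Sln, Pln and Pvalb are the widest.

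Atp2a1 stood at 9601, 9209, 13497 and 7732 CPM in MI replicates 1 to 4, against 10622, 15451, 12633 and 9368 CPM in Sham replicates 5 to 8. The groups overlapped, with MI replicate 3 above 3 of the 4 Sham animals and Sham replicate 6 highest of all. The mean was 10010 ± 2460 CPM in MI and 12018 ± 2655 CPM in Sham (SD, n = 4 each), and the log2 fold change was -0.26 ± 0.19 (SE; edgeR adjusted p = 0.709), with a 95% interval of -0.70 to 0.17. Without Sham replicate 6 the log2 fold change was -0.11, and without MI replicate 3 it was -0.44.

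Atp2a2, whose pump serves slow fibres, was the steadier of the pump pair. It stood at 3462, 3595, 2777 and 3284 CPM in MI, against 3971, 2539, 2594 and 3288 CPM in Sham. The lowest values belonged to Sham replicates 6 and 7 and MI replicate 3, the same 3 animals that had the highest Atp2a1. The log2 fold change was 0.08 ± 0.15 (SE; edgeR adjusted p = 0.883), with a 95% interval of -0.24 to 0.41. Atp2a2 is also transcribed in smooth muscle and, with Pln, Casq2 and Hrc, in heart muscle. In a bulk sample of tissue, fewer fibres of a type and less RNA per fibre cannot be told apart.

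To set the fast and the slow pump gene side by side, the 250 bases before the start of each are shown, as RefSeq gives them for the assembly GRCr8, which is not the rn5 build used by the submitters. Capitals mark matches to 4 motifs searched on both strands: the E-box CANNTG, bound by muscle regulatory factors among others, the TATA motif TATAAA, and the CArG and MEF2 motifs, which do not overlap each other in these sequences. The Atp2a1 sequence lies at chr1:190475411-190475660 on the minus strand and that of Atp2a2 at chr12:39733269-39733518 on the plus strand.
Atp2a1: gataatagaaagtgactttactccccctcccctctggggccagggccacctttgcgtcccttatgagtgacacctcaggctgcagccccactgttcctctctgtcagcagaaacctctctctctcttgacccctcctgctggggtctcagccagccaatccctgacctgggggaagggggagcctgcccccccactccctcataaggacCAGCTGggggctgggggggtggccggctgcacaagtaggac
Atp2a2: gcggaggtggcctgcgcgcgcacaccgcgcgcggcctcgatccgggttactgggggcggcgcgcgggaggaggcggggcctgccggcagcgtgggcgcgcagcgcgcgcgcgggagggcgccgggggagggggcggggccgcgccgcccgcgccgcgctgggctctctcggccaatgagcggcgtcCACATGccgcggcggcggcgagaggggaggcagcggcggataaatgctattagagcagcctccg
Each held 1 E-box, 41 to 36 bases before the start in Atp2a1 (CAGCTG) and 64 to 59 bases before it in Atp2a2 (CACATG). Of 33469 promoters of the same length, 65.5% held an E-box, so its presence sets neither gene apart. The sequences differed in base composition, with 62.4% G and C in Atp2a1 and 80.0% in Atp2a2, against a median of 51.2% over all promoters.

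Sln, which encodes sarcolipin, a peptide known to uncouple ATP use by the pump from calcium transport, varied more than any other member. It stood at 1116, 298, 484 and 235 CPM in MI, against 341, 369, 327 and 754 CPM in Sham. A single animal was high in each group, MI replicate 1 and Sham replicate 8, and both the lowest and the highest value belonged to MI. The fold between the highest and the lowest animal was 4.76. Its log2 fold change was 0.25 ± 0.54 (SE; edgeR adjusted p = 0.906), and it was -0.41 without MI replicate 1 and 0.63 without Sham replicate 8. The sign of the group difference thus depended on which of the high animals was counted. The pooled within-group SD of Sln was 0.81 on the log2 scale, larger than that of 99.6% of the 1423 genes with a mean of at least 100 CPM, whose median SD was 0.13.

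Pln, which encodes phospholamban, the peptide that lowers the calcium affinity of SERCA2 until it is phosphorylated, gave few reads in diaphragm, between 227 and 974 per library. It stood at 65.1, 26.0, 19.6 and 33.7 CPM in MI, against 42.3, 19.5, 20.6 and 27.9 CPM in Sham. MI replicate 1 was again the highest animal, while the other MI values lay within the Sham range. The log2 fold change was 0.40 ± 0.41 (SE; edgeR adjusted p = 0.795), with a 95% interval of -0.56 to 1.35, and it was -0.07 without MI replicate 1.

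**Figure D2:**
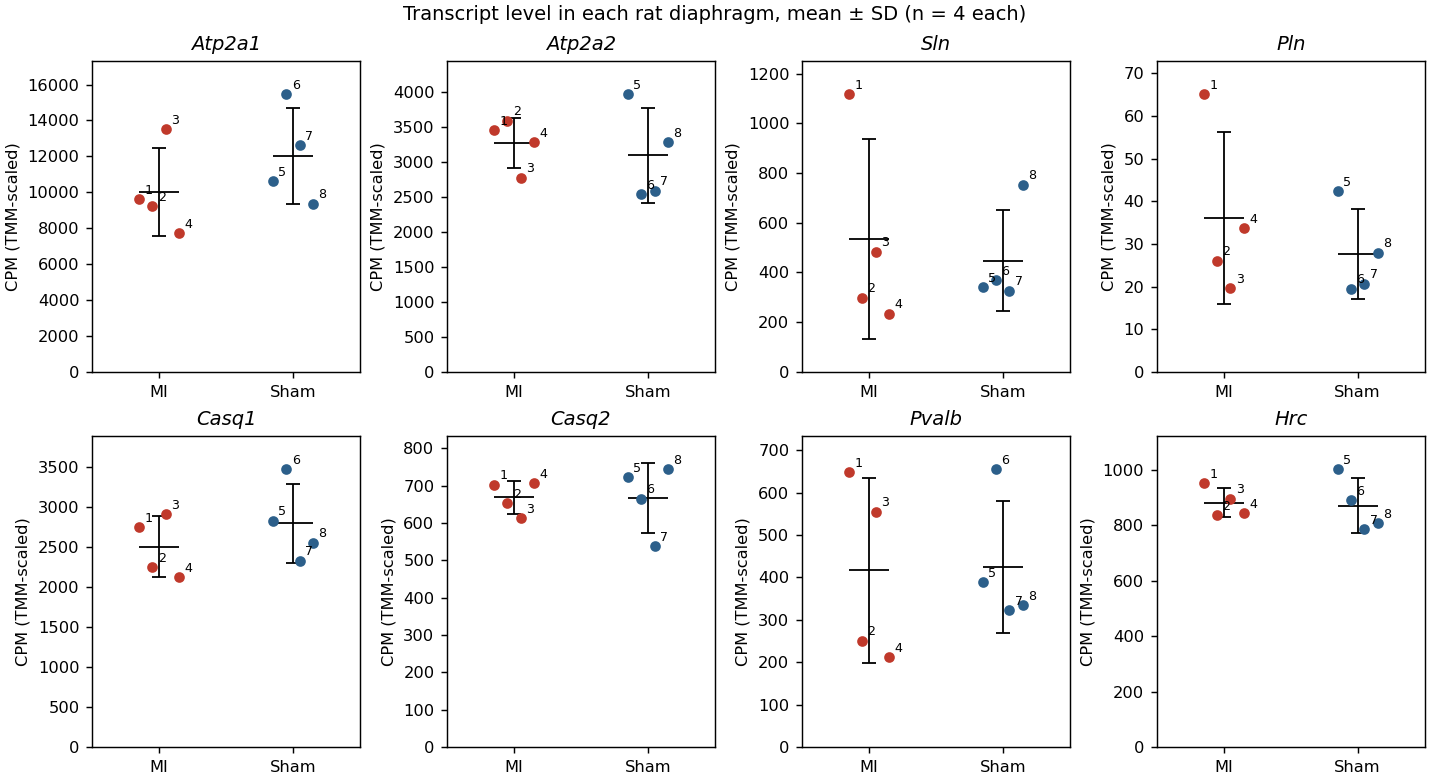
Points are the TMM-scaled CPM of 8 transcripts in each diaphragm, labelled by replicate number, with the mean and SD of the 4 MI and the 4 Sham animals as bars. The groups overlap for all 8 transcripts, and MI replicate 1 is the highest of all animals for Sln (1116 CPM) and Pln (65.1 CPM).

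Casq1, the calsequestrin of skeletal muscle, stood at 2749, 2250, 2917 and 2126 CPM in MI, against 2835, 3475, 2332 and 2557 CPM in Sham. The highest animal was Sham replicate 6 and the lowest MI replicate 4, with the others interleaved. The log2 fold change was -0.16 ± 0.14 (SE; edgeR adjusted p = 0.757), and it was -0.03 without Sham replicate 6. Casq2, the calsequestrin of heart, also made in slow fibres, averaged 669 ± 44.9 CPM in MI and 667 ± 92.7 CPM in Sham (SD, n = 4 each), and the log2 fold change was 0.0038 ± 0.11 (SE). Its values ran from 613 to 707 CPM in MI, inside the Sham range of 537 to 743 CPM. Its 95% interval was -0.23 to 0.24.

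Hrc, the histidine-rich calcium-binding protein of the reticulum lumen, which binds triadin, was the least variable member. It stood at 951, 835, 896 and 845 CPM in MI, against 1002, 890, 786 and 809 CPM in Sham. All MI values lay within the Sham range. Its log2 fold change was 0.02 ± 0.09 (SE; edgeR adjusted p = 0.966). Its within-group SD of 0.13 on the log2 scale exceeded that of 49.96% of the genes with at least 100 CPM, and the highest animal was 1.27 times the lowest.

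Pvalb, the gene of parvalbumin, stood at 648, 251, 555 and 212 CPM in MI, against 388, 655, 323 and 335 CPM in Sham. MI replicates 1 and 3 and Sham replicate 6 were high, and the remaining MI animals, replicates 2 and 4, were the lowest of all 8. The means were close, 416 ± 218 CPM in MI and 425 ± 156 CPM in Sham (SD, n = 4 each), with a log2 fold change of -0.03 ± 0.42 (SE; edgeR adjusted p = 0.987) and a 95% interval of -1.01 to 0.95. Its within-group SD was 0.66 on the log2 scale, larger than that of 98.8% of genes with at least 100 CPM. Parvalbumin is also a protein of some neurons. Summed levels of 6 neuron markers were 2.54 to 3.81 CPM in MI and 2.55 to 4.55 CPM in Sham, and their part in the Pvalb values was not tested.

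Across the 8 animals the levels of Casq1 and Pvalb followed each other most closely of the 28 pairs of members. The correlation of their log2 CPM was r = 0.89 (exact permutation p = 0.00342, adjusted over the 28 pairs 0.0958) and Spearman's rho was 0.93 (exact permutation p = 0.00223, adjusted 0.0625). Neither passed after adjustment over the pairs. Without the 2 animals farthest from the median Casq1 level r was 0.82, on deviations from the group means it was 0.92, and with each animal left out it ran from 0.85 to 0.96. The adjusted exact permutation p then ran from 0.0806 to 0.383 in 7 of the 8 cases and was 0.00556 without MI replicate 1, the only case that passed. The animal number ranges held 3 and 5 animals, too few for a value within each. Atp2a1 and Atp2a2 had r = -0.73 (exact permutation p = 0.0437, adjusted over the 28 pairs 0.306) and rho = -0.57 (exact permutation p = 0.151, adjusted 0.385). This relation did not pass, and r was -0.44 without the 2 animals farthest from the median Atp2a1 level. On deviations from the group means r was -0.72, and with each animal left out it ran from -0.88 to -0.60. In this pair 3 animals with high Atp2a1 and low Atp2a2 stood apart from the other 5.

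The sequences before the starts of Casq1 and Pvalb are shown because theirs was the closest of the member pairs, and that of Casq2 as the paralogue of Casq1. In GRCr8 they lie at chr13:87212711-87212960 on the minus strand for Casq1, chr7:111666290-111666539 on the minus strand for Pvalb and chr2:192214306-192214555 on the plus strand for Casq2, with capitals as above.
Casq1: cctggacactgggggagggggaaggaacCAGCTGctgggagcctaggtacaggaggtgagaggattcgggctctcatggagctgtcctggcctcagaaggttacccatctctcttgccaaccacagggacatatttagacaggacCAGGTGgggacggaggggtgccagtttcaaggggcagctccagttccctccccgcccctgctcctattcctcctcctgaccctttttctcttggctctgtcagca
Pvalb: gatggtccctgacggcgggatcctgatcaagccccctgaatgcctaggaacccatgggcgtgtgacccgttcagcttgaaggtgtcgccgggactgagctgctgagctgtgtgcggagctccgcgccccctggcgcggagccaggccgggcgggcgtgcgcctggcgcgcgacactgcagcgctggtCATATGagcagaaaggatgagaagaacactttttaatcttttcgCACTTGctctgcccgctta
Casq2: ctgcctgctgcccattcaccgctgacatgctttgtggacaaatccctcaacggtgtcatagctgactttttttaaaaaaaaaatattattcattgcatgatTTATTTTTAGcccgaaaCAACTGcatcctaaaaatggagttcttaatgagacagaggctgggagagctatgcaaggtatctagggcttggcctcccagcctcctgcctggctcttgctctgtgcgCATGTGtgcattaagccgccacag
Casq1 held 2 E-boxes (CAGCTG at 222 to 217 and CAGGTG at 105 to 100 bases before the start) and Pvalb 2 (CATATG at 63 to 58 and CACTTG at 19 to 14), against a median of 1 per promoter. The share of promoters with at least 2 is not given here, so these counts do not set the genes apart. Casq2 held 2 E-boxes and 1 match to the MEF2 motif, at 149 to 140 bases before the start, a motif found in 2.96% of all promoters of this length. None of the 5 sequences shown held the TATA motif, found in 12.9% of promoters, or the CArG motif, found in 1.5%. These matches describe letters in a fixed window, and no binding was measured.

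**Figure D3:**
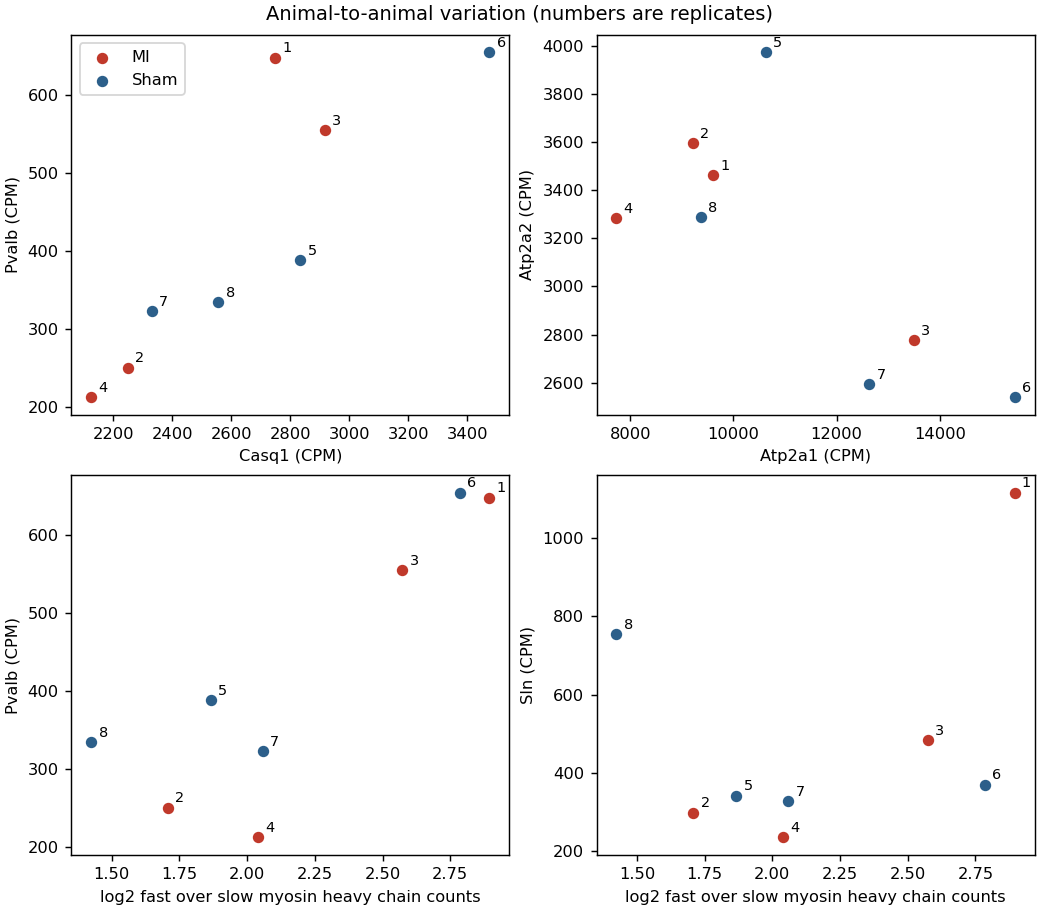
Each point is 1 animal, labelled by replicate: Pvalb against Casq1 CPM (top left), Atp2a2 against Atp2a1 CPM (top right), and Pvalb and Sln CPM against the log2 ratio of fast to slow myosin heavy chain counts (bottom). Pvalb and Casq1 had r = 0.89, which did not pass after adjustment, MI replicate 3 and Sham replicates 6 and 7 combine high Atp2a1 with low Atp2a2, and the highest Sln values lie at both ends of the myosin ratio.

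The animals differed in their myosin heavy chains, which mark fibre types. The log2 ratio of fast chain counts (Myh1, Myh2 and Myh4) to slow chain counts (Myh7) was 2.89, 1.71, 2.57 and 2.04 in MI, against 1.87, 2.79, 2.06 and 1.42 in Sham. The groups overlapped, at 2.30 ± 0.53 in MI and 2.03 ± 0.57 in Sham (SD, n = 4 each; exact two-sided permutation p = 0.543 over 70 arrangements). Myh4, the fastest chain, ran from 11.4 to 3700 CPM in MI and from 138 to 2083 CPM in Sham. Myh7 was the only slow gene in this ratio, and another slow fibre marker, Tnnt1, ranked the animals differently. MI replicate 1 had the lowest Myh7 (2283 CPM) but 4598 CPM of Tnnt1, above the MI mean of 4327 CPM. Sham replicate 7 had 4978 CPM of Myh7 but the lowest Tnnt1 of all 8 animals, 3471 CPM. Of 8 slow fibre markers, 3 had a log2 fold change above 0 and 5 below, beside 51.3% below over all genes. None passed the edgeR threshold.

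Of the 8 members, Pvalb followed this myosin ratio most closely, with r = 0.79 (exact permutation p = 0.0245, adjusted over the 8 members 0.196) and a Spearman's rho of 0.67 (exact permutation p = 0.0831, adjusted 0.399). It did not pass after adjustment. Without MI replicate 1 and Sham replicate 6, the animals farthest from the median ratio, r was 0.50, so the relation rested in part on them. On deviations from the group means r was 0.86 (adjusted permutation p = 0.0770). These deviations sum to 0 in each group and were permuted across the groups, so this p is not exact. With each animal left out r ran from 0.72 to 0.90. Casq1 gave r = 0.60 and Atp2a1 r = 0.51, while Atp2a2 gave r = -0.44, each with an adjusted exact permutation p of 0.442. The corresponding Spearman's rho was 0.50, 0.57 and -0.48, each with an adjusted exact permutation p of 0.399. On deviations from the group means r was 0.77, 0.72 and -0.53, with adjusted permutation p values of 0.120, 0.120 and 0.347, again not exact. Without MI replicate 1 and Sham replicate 6 it was 0.31, 0.59 and -0.55. Sln gave r = 0.30 and rho = 0.36, with adjusted exact permutation p values of 0.630 and 0.445, and r turned to -0.25 without the same animals. Its high animals, MI replicate 1 and Sham replicate 8, had the highest and the lowest myosin ratio of all 8. These correlations take Myh7 as the only slow gene, and those with other slow fibre markers are not given here.

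Ratios taken within a library do not depend on the scaling, though their sign also reflects transcript length and does not say which transcript is more abundant. The log2 ratio of Atp2a1 to Atp2a2 was 1.47, 1.36, 2.28 and 1.24 in MI, against 1.42, 2.61, 2.28 and 1.51 in Sham. A single MI animal, replicate 3, shared the high range of Sham replicates 6 and 7. The mean was 1.59 ± 0.47 in MI and 1.95 ± 0.58 in Sham (SD, n = 4 each), a difference of -0.37 (exact two-sided permutation p = 0.229, adjusted over 6 ratios 0.714). For Casq1 to Casq2 the mean was 1.90 ± 0.28 in MI and 2.06 ± 0.25 in Sham, a difference of -0.17 (exact two-sided permutation p = 0.429). Without Sham replicate 6 these differences were -0.15 and -0.059, and without MI replicate 3 they were -0.60 and -0.28. The smallest p that 4 against 4 animals allow is 0.0286.

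Ratios of the regulators to the pumps also overlapped between the groups. Sln relative to the sum of both pumps had a log2 ratio of -3.55, -5.43, -5.07 and -5.55 in MI, against -5.42, -5.61, -5.54 and -4.07 in Sham. MI replicate 1 and Sham replicate 8 stood above the other 6. Pln relative to Atp2a2 had a log2 ratio of -5.73, -7.11, -7.15 and -6.61 in MI, against -6.55, -7.02, -6.97 and -6.88 in Sham. MI replicate 1 again stood highest, MI replicates 2 and 3 lay below every Sham value, and MI replicate 4 lay within the Sham range. The differences between MI and Sham were 0.26 for Sln to the pumps, 0.21 for Pln to Atp2a2, 0.14 for Pvalb to Atp2a1 and -0.24 for Sln to Pln. Their exact two-sided permutation p values were 0.571, 0.714, 0.714 and 0.629, and the adjusted p was 0.714 for each of the 6 ratios.

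**Figure D4:**
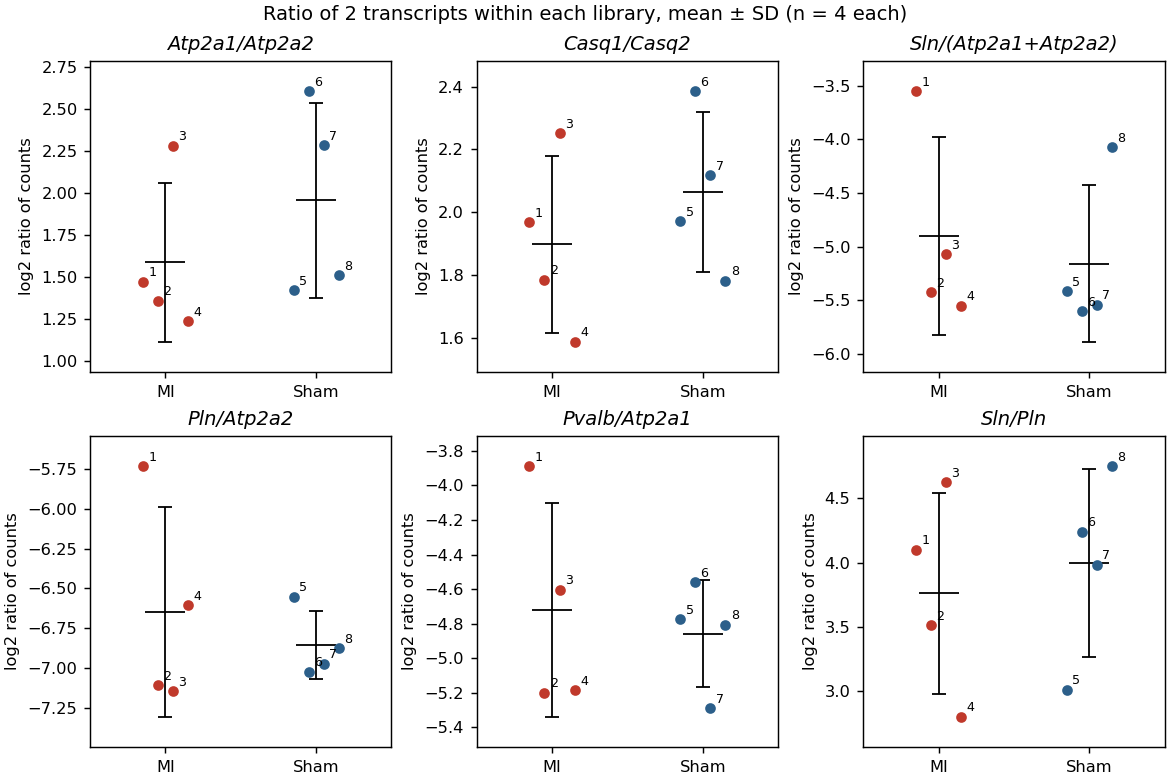
Points are log2 ratios of the counts of 2 transcripts within each library, labelled by replicate, with the mean and SD of the 4 MI and the 4 Sham animals. The groups overlap in all 6 ratios, and MI replicate 1 and Sham replicate 8 stand above the others in the ratio of Sln to both pumps.

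The genes whose log2 CPM was most like that of a member over the 8 animals were taken from 6607 genes with a mean of at least 10 CPM. As the closest of so many, they are given as a description. Atp2a1 was most like Myh1 (r = 0.98) and Mybpc2 (r = 0.97), the IIX myosin heavy chain and the fast myosin-binding protein C, with a Spearman's rho of 0.98 and 1.0. Pvalb was most like Ift52 and Tpi1 (both r = 0.97), and Casq1 most like Fgf13 (r = 0.96) and Ccdc43 (r = 0.95). Atp2a2 was most like Ofd1 and Ccdc51 (both r = 0.95), Casq2 like Pja2 (r = 0.96) and Zc3hc1 (r = 0.94), and Hrc like Tmem177 (r = 0.94) and Nup98 (r = 0.93). For Pln the closest were Naa20 (r = 0.98) and Ssb (r = 0.97), and for Sln Rps15 (r = 0.95) and Pwwp2a (r = 0.93).

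Other genes of calcium handling were grouped in 6 lists of 76 genes, of which 68 had a usable row (4 under an older symbol) and 61 passed the low-count filter. Of the 61, 31 had a log2 fold change above 0 and 30 below, beside 51.3% below over all genes. The median was 0.0087, and 0 passed the edgeR threshold. At an unadjusted p under 0.05 there were 5, or 8.20%, beside 8.14% of all genes, with 2 higher in MI and 3 lower. DESeq2 called 0 of the 61, beside 0.133% of all genes, and limma-voom 0 of the 61, beside 0%.

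Among other calcium pumps and exchangers, 4 of 9 tested genes had a log2 fold change above 0. Atp2c1, a calcium and manganese pump of the Golgi, stood at 113 ± 17.3 CPM in MI and 88.9 ± 13.2 CPM in Sham (SD, n = 4 each), and its log2 fold change was 0.34 ± 0.13 (SE). Atp2b3, a plasma membrane calcium pump, stood at 6.21 ± 2.26 CPM in MI and 9.23 ± 1.62 CPM in Sham, a log2 fold change of -0.59 ± 0.24. Both had an edgeR adjusted p of 0.601. Slc8b1, the sodium-calcium exchanger of mitochondria, had a log2 fold change of -0.36 ± 0.21.

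Among the release channel complex and the partners of calsequestrin, 8 of 12 tested genes lay below 0, with a median of -0.06. The smallest p values belonged to Cacna1s (log2 fold change -0.24 ± 0.13), the voltage-sensing channel of the T-tubule, its beta subunit Cacnb1 (-0.30 ± 0.16), and Tmem38a (-0.17 ± 0.09), a potassium-permeable channel of the reticulum. Ryr1, Ryr3 and Asph had no row and were not analysed here. Among other proteins that act on SERCA or phospholamban, 8 of 12 lay above 0, with a median of 0.05. Prkaca, the catalytic subunit of protein kinase A, which phosphorylates phospholamban, had a log2 fold change of -0.13 ± 0.09. Ppp1cb, a catalytic subunit of protein phosphatase 1, had 0.13 ± 0.09 and Camk2b, a calmodulin-dependent kinase, -0.15 ± 0.13, or -0.038 without MI replicate 1.

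Among other calcium-binding proteins of the cytosol and the secretory lumen, 5 of 12 lay above 0. Rcn1, a reticulocalbin of the endoplasmic reticulum, stood at 14.1 ± 0.71 CPM in MI and 11.7 ± 0.68 CPM in Sham (SD, n = 4 each), and its log2 fold change was 0.28 ± 0.10 (SE). Nucb1, a Golgi calcium-binding protein, had -0.18 ± 0.08, and Hsp90b1, a luminal chaperone that binds calcium, -0.20 ± 0.08. These 3 had an unadjusted edgeR p under 0.05 and an edgeR adjusted p of 0.601.

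In mitochondrial calcium uptake 6 of 8 tested genes lay above 0, with a median of 0.11. Vdac3 and Vdac2, channels of the outer membrane, had log2 fold changes of 0.18 ± 0.09 and 0.12 ± 0.08, and Micu3, a regulator of the calcium uniporter, 0.28 ± 0.17. In store-operated entry 4 of 8 lay above 0. Orai1, the store-operated channel, had 0.19 ± 0.13, and Stim1, the calcium sensor of the reticulum, -0.11 ± 0.08. No gene of these 2 lists had an unadjusted edgeR p under 0.05.

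**Figure D5:**
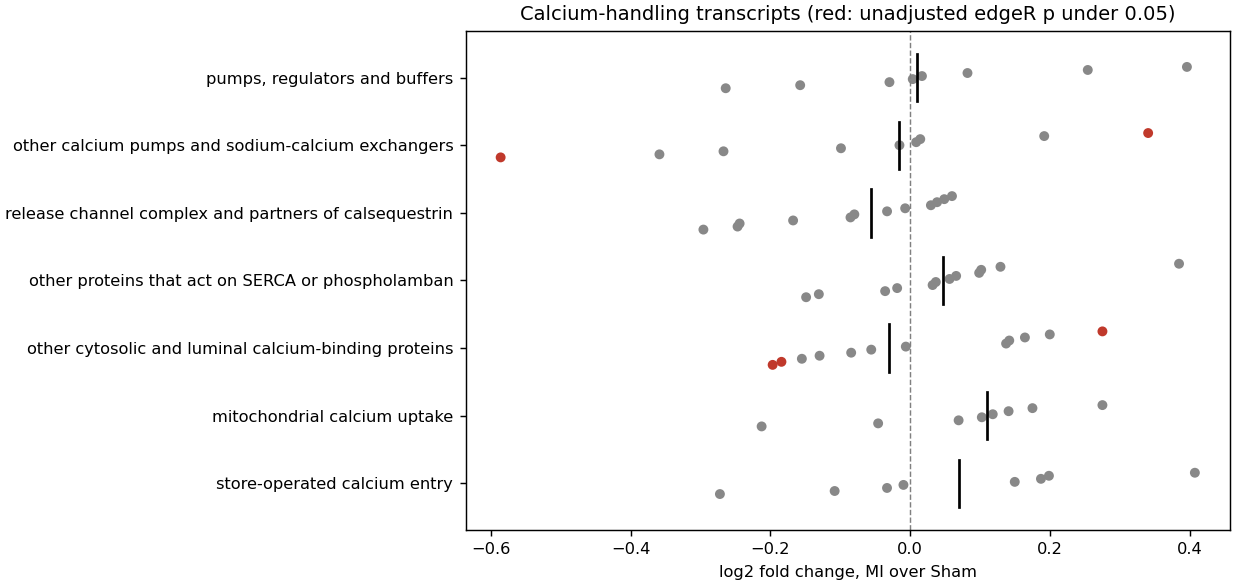
Each point is the edgeR log2 fold change of MI over Sham for 1 tested gene, in rows for the 8 pump, regulator and buffer transcripts and 6 lists of other calcium-handling genes, with the median of each row as a black bar. Red points have an unadjusted p under 0.05 (5 of 61 other genes, 0 of 8 in the top row), and none passed after adjustment.

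Markers of other muscle types were read beside these values. Skeletal muscle genes were abundant in all 8 libraries, with Acta1, skeletal actin, at 41724 to 50035 CPM in MI and 41268 to 52627 CPM in Sham. Of 12 cardiac markers 7 were tested and 5 of those lay above 0, with a median log2 fold change of 0.34. The summed level of the 12 was 73.7 to 190 CPM in MI and 33.0 to 140 CPM in Sham. Myh6 alone gave 127 CPM of the highest sum, in MI replicate 3, and 3.28 CPM of the lowest, in Sham replicate 7. The 7 tested markers were above 0 in every library, among them Tnni3 at 10.2 to 12.7 CPM in MI and 5.98 to 20.5 CPM in Sham, and Tnnt2 at 3.57 to 14.0 CPM in MI and 4.32 to 21.7 CPM in Sham, both cardiac troponins. Of those below the filter, Myl7 was at 0 in every library, and Nppa was at 0 in all but Sham replicate 5, at 0.073 CPM, below the 3 counts taken as a floor. All 6 smooth muscle markers lay below 0, beside 51.3% of all genes tested, with a median of -0.29. Their log2 fold changes ran from -0.91 for Actg2 to -0.06 for Acta2. None of the 6 passed the edgeR threshold, and the smallest edgeR adjusted p was 0.601. The 6 markers summed to 167 to 235 CPM in MI and 217 to 269 CPM in Sham. The part of smooth or heart muscle RNA in the values of Atp2a2, Pln, Casq2 and Hrc was not tested.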

How the data were processed

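Diaphragm RNA of 4 MI and 4 Sham rats was sequenced as 1 library per animal. Per the labels' protocols, TRI Reagent was used to extract total RNA, and a SMARTer kit for low input and a KAPA kit to prepare libraries. The authors deposited raw read counts per gene symbol. Build rn5 and the programs Cufflinks, TopHat, TopHat2, STAR 2.5.0a and bcl2fastq stand in the submitters' processing notes, with no roles. How reads were counted, and against which annotation, is not given in the sources used here. How alike the transcripts of Atp2a1 and Atp2a2, or of Casq1 and Casq2, are was not examined. Reads of any stretches alike in a pair could have been shared or lost. A value of 1 paralogue is uncertain to that extent.

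Groups came from the labels, which number the animals and give no pairing or batch. Each library came from a separate animal and counted as 1 replicate. Libraries of a group differed far beyond sampling noise (chi-square per degree of freedom 12.1 to 44.3). A floor of 3 counts equals 0.116 to 0.369 CPM, which covers counting error only. Genes were tested with edgeR 4.0.16 in R 4.3.3 (filterByExpr, TMM, robust quasi-likelihood F test, two-sided, Benjamini-Hochberg over 10522 genes, threshold 0.05). The SE was derived as the absolute log2 fold change divided by the square root of the F statistic. Intervals use this SE and the degrees of freedom of that test. Ratios used a pseudocount of 0.5, and correlations log2 CPM with a prior count of 2. Permutation tests enumerated all arrangements of the animals and were two-sided.

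The 9 symbols and the lists were chosen with earlier results of these data known. Named genes are the members, the 3 of each calcium list with the smallest p (1 of these is not reported here), the myosin heavy chains, the markers needed to give a range and the 2 genes most like each member. The 28 pairs and the ranking of spreads were added after seeing the data. Symbols were matched to RefSeq names of GRCr8, also the source of the promoter sequences, of which Sln had none. Alternatives were RLE scaling, library totals, other low-count filters, DESeq2 1.42.0, limma-voom (limma 3.58.1), no robust estimation, a threshold of 0.1, the animal number range as a term, other pseudocounts and each library left out. The fits were tested on simulated data with 200 genes changed.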

Additional observations from a re-analysis of the deposited data

Results flagged for a closer look

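Sln was far higher in Sham replicate 8 than in the other Sham animals, at 754 CPM against 327 to 369 CPM. Its gap to the nearest Sham value took up 0.901 of the whole range of the group, above Dixon's critical value of 0.829 for 4 samples. The log2 ratio of Sln to the sum of Atp2a1 and Atp2a2 was flagged in the same animal, with a gap of 0.879 of the range. Both flags rest on the same 6125 Sln counts of 1 library. In all, 30 groups of 4 values were examined, and chance flags about 1 in 20.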

How the results depend on the processing

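No paired analysis was possible because the MI and Sham animals share no replicate numbers. The count of 0 genes past the threshold became 14 with DESeq2 and ranged from 0 to 1 with each library left out, with 1 gene without MI replicate 1 and 1 without MI replicate 3; the cause was not tested. The counts of members and of other calcium genes past the threshold stayed at 0 in each alternative, a threshold of 0.1 included. Of the log2 fold changes near 0, that of Casq2 was -0.00068 with library totals, -0.0029 with a filter of 1 CPM in 4 libraries and -0.017 with a term for the range of animal numbers, and that of Hrc was -0.014 with that term, which also took Sln to 0.071, Pln to 0.19 and Atp2a2 to 0.0092; limma-voom gave 0.071 for Sln and -0.13 for Pvalb; the cause was not tested. With each library left out the log2 fold change ran from -0.00098 to 0.22 for Atp2a2, -0.41 to 0.63 for Sln, -0.067 to 0.68 for Pln, -0.094 to 0.060 for Casq2, -0.33 to 0.26 for Pvalb and -0.036 to 0.083 for Hrc. The difference in ratio ran from -0.60 to -0.15 for Atp2a1 to Atp2a2, -0.28 to -0.059 for Casq1 to Casq2, -0.19 to 0.62 for Sln to the pumps, -0.10 to 0.37 for Pln to Atp2a2, -0.14 to 0.30 for Pvalb to Atp2a1 and -0.57 to 0.083 for Sln to Pln. Of the calcium genes named beside the members, all kept their sign, with the log2 fold change of Camk2b running from -0.24 to -0.038, Prkaca -0.17 to -0.070, Stim1 -0.14 to -0.054, Slc8b1 -0.48 to -0.21, Cacna1s -0.36 to -0.15, Cacnb1 -0.45 to -0.19, Orai1 0.11 to 0.26, Vdac2 0.074 to 0.16 and Vdac3 0.12 to 0.22. In the high range of animal numbers alone (2 MI and 3 Sham, smallest p 0.1) it was -0.24 for Sln to the pumps and -0.0097 for Pvalb to Atp2a1. The correlation with the myosin ratio ran from -0.20 to 0.74 for Sln, -0.59 to 0.35 for Pln and -0.45 to 0.062 for Casq2, and without the 2 farthest animals it was -0.25 for Sln and -0.45 for Pln. Depth was no limit for 7 of the 8 members, while Pln had 227 counts in the smallest library.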

Other observations

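Myh6, the alpha myosin heavy chain of the heart, varied widely between diaphragms. It stood at 34.4, 58.2, 127 and 109 CPM in MI, against 71.0, 44.1, 3.28 and 4.92 CPM in Sham. Sham replicates 7 and 8 were the lowest, and the groups overlapped. The log2 fold change was 1.40 ± 0.99 (SE; edgeR adjusted p = 0.707). Myl4, an essential light chain counted here as a cardiac marker, stood at 13.8, 14.6, 33.6 and 34.1 CPM in MI, against 31.2, 9.78, 11.4 and 10.2 CPM in Sham. MI replicates 3 and 4 and Sham replicate 5 were high. Myh6 and Myl4 were chosen after their values were seen, from 7 tested cardiac markers of which 5 lay above 0 and 2 below. Those below were Tnnt2, with a log2 fold change of -0.58 ± 0.55 (SE), and Tnni3, with -0.30 ± 0.34. No cardiac marker passed the edgeR threshold.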
